A study of Mus musculus with 12 samples.

Results

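Pachytene spermatocytes of Rnaseh1 knock-out mice were compared with wild-type ones across all genes, using 6 of the 12 RNA-seq libraries of the study. The 3 libraries of each genotype (replicates 1 to 3) come from the C57BL/6 strain and from cells sorted by flow cytometry, and the other 6 libraries hold leptotene/zygotene cells of both genotypes. Levels are FPKM (fragments scaled to transcript length and library size) that the authors had rescaled with ERCC spike-in RNA, and the table lists 23235 genes. The labels do not say how the Rnaseh1 allele was made, at which age cells were taken, or whether replicates are separate animals, so the p-values measure only the spread between libraries. For the gene tests that spread was taken from 1 fit of all 12 libraries, both stages included. Of the listed genes, 15400 reached 1 FPKM in at least 3 of the 12 libraries and were tested.

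Rnaseh1 encodes RNase H1, a nuclease that cuts RNA paired with DNA and in this way takes apart R-loops. Pachytene is the stage of meiotic prophase in which homologous chromosomes are fully synapsed, recombination is completed, and the unpaired X and Y chromosomes are silenced inside the sex body. Pachytene cells also switch on a large programme of spermatogenic transcription, driven in part by the factors A-MYB and TCFL5, while the genes of haploid round spermatids follow later.

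Rnaseh1 itself was listed at 52.7, 51.7 and 56.8 FPKM in wild-type replicates 1 to 3 and at 77.4, 68.9 and 94.3 FPKM in the libraries labelled knock-out. All 3 knock-out-labelled values lay above the wild-type ones, and the log2 change of 0.56 (SE 0.23) missed the threshold (limma adjusted p = 0.0638). As a share of each library's summed level the change was -0.01 (SE 0.24, adjusted p = 0.991). The mRNA level thus did not fall in the libraries labelled knock-out, and because the labels do not say which part of the gene was altered, it is no check of the labels. These libraries are therefore called KO-labelled throughout.

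Among the genes that were lower in KO-labelled pachytene cells, 3 groups stood out. They were mRNAs of haploid spermatids (Prm1, Tnp2, Smcp), mRNAs of spermatogonia and some of early meiosis (Dmrt1, Uchl1, Stra8, Dmc1), and mRNAs of the X and Y chromosomes (Hprt, Eif1ax, Eif2s3y). Marker genes of the Sertoli and peritubular cells that surround germ cells were lower as well (Cst9, Myl9). Far fewer genes were higher than lower as a share of each library's total, whereas on the spike-in scale more were higher. The short set higher on both scales held several aminoacyl-tRNA synthetases (Mars, Iars, Gars, Aars), the amino acid transporter Slc1a4 and the secreted serine protease inhibitor Serpina1e. The pachytene genes Tcfl5, Csda and Ldhc were higher on the spike-in scale and uncalled as a share of each library's total.

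These statements depend on how a library's total is treated. The FPKM of the tested genes summed to 3311509, 4050040 and 4164043 in wild-type replicates 1 to 3, and to 6683279, 5775211 and 4799459 in the KO-labelled ones. The KO-labelled mean was 1.497 times the wild-type mean, with no overlap, and the exact two-sided permutation test gave p = 0.1, the smallest possible with 3 libraries a group. The median over genes was 22.6 to 28.9 FPKM in wild-type and 25.9 to 29.1 FPKM in KO-labelled libraries, a ratio of 1.07 with overlapping groups (exact permutation p = 0.4). Each gene was therefore tested on the spike-in scale, log2(FPKM + 1), and again on the share scale, log2 of the gene's part of its library's summed FPKM, per 1000000, plus 1. In bulk libraries, fewer cells of a type and less RNA per cell cannot be told apart.

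On the spike-in scale, 3784 genes (24.6%) were higher and 2196 (14.3%) lower in KO-labelled cells at an adjusted p below 0.05. On the share scale 42 genes (0.273%) were higher and 1420 (9.22%) lower, so that the balance of calls turned from mostly higher to nearly all lower. The median change of all genes was 0.37 on the spike-in scale, -0.11 on the share scale and 0.04 when libraries were scaled by the median ratio, and single changes are best read against those medians. The text leads with genes called in the same direction on both scales. These were 1126 lower genes, with a median share-scale change of -1.65, and all 42 of the higher ones. No gene was higher on one scale and lower on the other.

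The pachytene and A-MYB target list, a marker of the labelled stage, made up 2.38 to 3.44% of the summed FPKM in these 6 libraries and 1.03 to 1.51% in the leptotene/zygotene ones. Because the fit also took spread from the leptotene/zygotene libraries, the 6 pachytene libraries were fitted alone as well. That fit called 138 genes higher and 2837 lower on the share scale, and 3338 higher and 2106 lower on the spike-in scale. Single libraries weighed heavily on the counts of the main fit. KO-labelled replicate 3 correlated with wild-type libraries at r = 0.951 to 0.963 across genes, against 0.918 to 0.943 for the other KO-labelled libraries, and among the 1126 lower genes it had the highest KO-labelled share for 913, as it had for 7496 of all 15400 genes. Without wild-type replicate 1 or 3, or KO-labelled replicate 1 or 2, the lower genes on the share scale numbered 652, 794, 565 and 605, while 1443 were lower without KO-labelled replicate 3. The higher genes on that scale numbered 24 and 23 without wild-type replicate 2 or 3, and 15 and 13 without KO-labelled replicate 1 or 2. On the spike-in scale the higher genes fell to 933 and 797 without wild-type replicate 1 or 2 and to 300 and 370 without KO-labelled replicate 1 or 2. The lower genes on that scale numbered 1232 and 1382 without wild-type replicate 1 or 2, and 1071 and 978 without KO-labelled replicate 1 or 2.

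**Figure D1:**
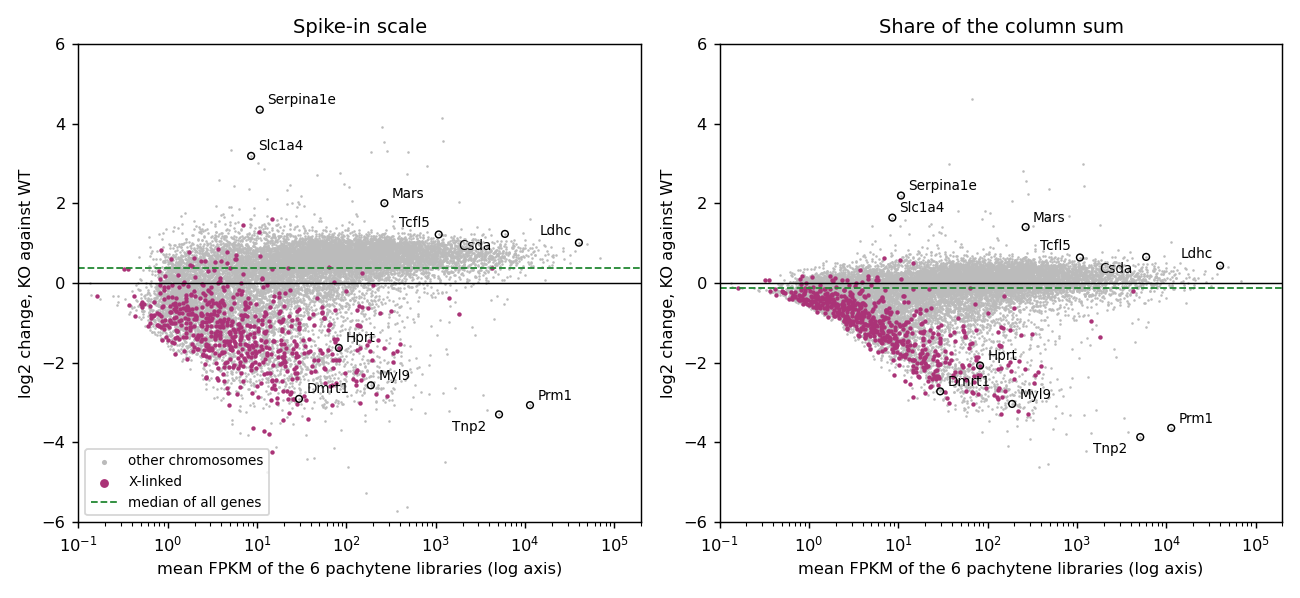
Each point is 1 of the tested genes, placed by its mean FPKM over the 6 pachytene libraries (log axis) and by its log2 change, KO-labelled against wild type, on the spike-in scale (left) and the share scale (right). The dashed lines mark the medians of 0.37 and -0.11, X-linked genes (coloured) lie mostly below 0 on both scales, and 14 and 13 genes lie outside the axes.

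Genes of haploid spermatids formed the first lower group. The list of round spermatid genes had 40 tested members, of which 20 (50%) were lower and 0 higher on the share scale. Among all genes 9.22% were lower there. The list's median change was -2.52, against -0.11 for all genes. On the spike-in scale 28 (70%) were lower and 3 (7.5%) higher, against 14.3% and 24.6% of all genes. Promoter sequences of 3 of these genes are shown here because sites of the cAMP response element type, the target of the spermatid activator CREM, recur among them.
Prm1: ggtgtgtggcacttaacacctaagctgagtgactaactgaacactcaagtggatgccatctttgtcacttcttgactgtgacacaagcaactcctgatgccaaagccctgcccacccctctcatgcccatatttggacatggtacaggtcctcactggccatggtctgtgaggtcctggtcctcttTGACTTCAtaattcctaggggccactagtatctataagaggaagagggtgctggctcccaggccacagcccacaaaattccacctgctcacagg
Tnp1: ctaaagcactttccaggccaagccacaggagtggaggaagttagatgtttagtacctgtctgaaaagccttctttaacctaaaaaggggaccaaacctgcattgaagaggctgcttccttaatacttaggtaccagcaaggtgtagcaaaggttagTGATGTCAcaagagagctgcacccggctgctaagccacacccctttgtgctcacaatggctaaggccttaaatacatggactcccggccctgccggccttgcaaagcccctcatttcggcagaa
Akap4: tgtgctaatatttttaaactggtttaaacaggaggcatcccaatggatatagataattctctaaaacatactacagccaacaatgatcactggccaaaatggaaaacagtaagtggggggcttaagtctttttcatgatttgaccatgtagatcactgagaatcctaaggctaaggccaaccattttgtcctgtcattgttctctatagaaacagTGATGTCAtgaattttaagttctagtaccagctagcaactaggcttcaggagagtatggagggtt
The sequences run 5′ to 3′ on the strand of the gene, from 250 bases before the annotated start to 30 after it, and come from RefSeq, build GRCm38.p6. They span chr16:10796794-10797073 (minus strand) for Prm1, chr1:73015870-73016149 (minus strand) for Tnp1 and chrX:7067265-7067544 (plus strand) for Akap4. Capitals mark TGACNTCA, searched on both strands in the 250 bases before and 50 after each start. This motif lay in the promoters of 18 of the 35 round spermatid genes with a RefSeq entry (51.4%), of 134 of 901 genes lower on both scales (14.9%) and of 1186 of all 12131 (9.78%). The match describes the letters of these windows only.

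Prm1, the protamine that replaces histones in the sperm nucleus, stood at 19858, 21909 and 17457 FPKM in wild-type and at 3864, 764 and 4391 FPKM in KO-labelled libraries. The highest KO-labelled value was far below the lowest wild-type one, and replicate 2 was the lowest. The change was -3.06 on the spike-in scale (limma adjusted p = 0.00952) and -3.64 on the share scale (SE 0.71, adjusted p = 0.00869). Tnp2, a transition protein that precedes the protamines, stood at 10970, 8565 and 7681 FPKM against 1382, 303 and 1807 FPKM, again with no overlap and with KO-labelled replicate 2 lowest. Its share-scale change was -3.86 (SE 0.68, adjusted p = 0.00526), the lowest of the list. Tnp1 (-3.38) and Prm2 (-3.74) moved with them. Of the 13 tested protamines, transition proteins and spermatid histones, 8 (61.5%) were lower on the share scale, against 9.22% of all genes.

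Some genes for other proteins of the later sperm cell were lower too. Smcp, a protein of the sperm mitochondrial sheath, fell from 924, 1246 and 786 FPKM to 157, 93.5 and 294 FPKM, a share-scale change of -3.10 (SE 0.60, limma adjusted p = 0.00794). Spaca7, a protein of the acrosome, fell by 2.74 on the share scale (adjusted p = 0.00384). Akap4, the X-linked anchoring protein of the flagellar fibrous sheath, stood at 337, 166 and 237 FPKM against 49.4, 24.6 and 65.8 FPKM (share-scale change -2.86, SE 0.68, adjusted p = 0.0214). Of the 5 tested testis-specific serine kinases 4 (80%) were lower on the share scale, led by Tssk6 at -3.22. So were 5 of 18 acrosome genes (27.8%) and 5 of 28 flagellum genes (17.9%), against 9.22% of all genes. The latter lists did not lean to one side as a whole: their share-scale medians were -0.06 and 0.00. On the spike-in scale 6 acrosome genes (33.3%) were higher and 6 (33.3%) lower, and 11 flagellum genes (39.3%) higher and 9 (32.1%) lower. Among all genes 24.6% were higher and 14.3% lower there. The higher counts were 2 and 0 for the acrosome and 2 and 4 for the flagellum without wild-type replicate 1 or 2, and 0 for both without KO-labelled replicate 1 or 2. For Prm1, Tnp2, Smcp and Spaca7 the genotypes did not overlap, and these 4 genes kept their share-scale call when any 1 library was left out.

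The round spermatid list did not move as one. Of its tested members 33 had share-scale changes of -1.73 or below, called or not, whereas 7 lay near 0. Crem, the transcription factor named above, stood at 491, 525 and 717 FPKM in wild-type and at 1178, 930 and 752 FPKM in KO-labelled libraries, a share-scale change of 0.14 (adjusted p = 0.722). Acrbp (0.30), a chaperone of the acrosomal protease, Odf2 (0.10), an outer dense fibre protein, and the cation channel subunit Catsper2 (0.45) also missed the threshold on that scale.

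The count of spermatid genes rested on several libraries. Without wild-type replicate 1, 2 or 3 it was 5, 11 and 12 of 40, without KO-labelled replicate 1 or 2 it was 8 and 7, and in a fit of the 6 pachytene libraries alone it was 33. Tnp1 lost its call without wild-type replicate 1, Prm2 without wild-type replicate 1 or 2 or KO-labelled replicate 2, Akap4 without wild-type replicate 1 or 3 or KO-labelled replicate 1 or 2, and Tssk6 without wild-type replicate 1. The serine kinases counted 0, 1 and 1 without wild-type replicate 1, 2 or 3 and 1 without KO-labelled replicate 1 or 2, and the protamine and transition protein list counted 2 and 3 without wild-type replicate 1 or 2 and 4 and 3 without KO-labelled replicate 1 or 2. The acrosome list counted 2, 3 and 3 without wild-type replicate 1, 2 or 3 and 2 without KO-labelled replicate 1 or 2, and the flagellum list counted 1 and 2 without wild-type replicate 1 or 3 and 1 without KO-labelled replicate 1 or 2. Together the list made up 1.34 to 1.88% of the summed FPKM in wild-type and 0.313 to 0.479% in KO-labelled pachytene libraries. It also made up 2.70 to 4.38% in the wild-type and 0.311 to 1.94% in the KO-labelled leptotene/zygotene libraries, a stage before haploid cells form, and the share-scale change of Prm1 did not differ between stages by the interaction test (adjusted p = 0.578). The part of cells beyond pachytene in these values was not tested.

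**Figure D2:**
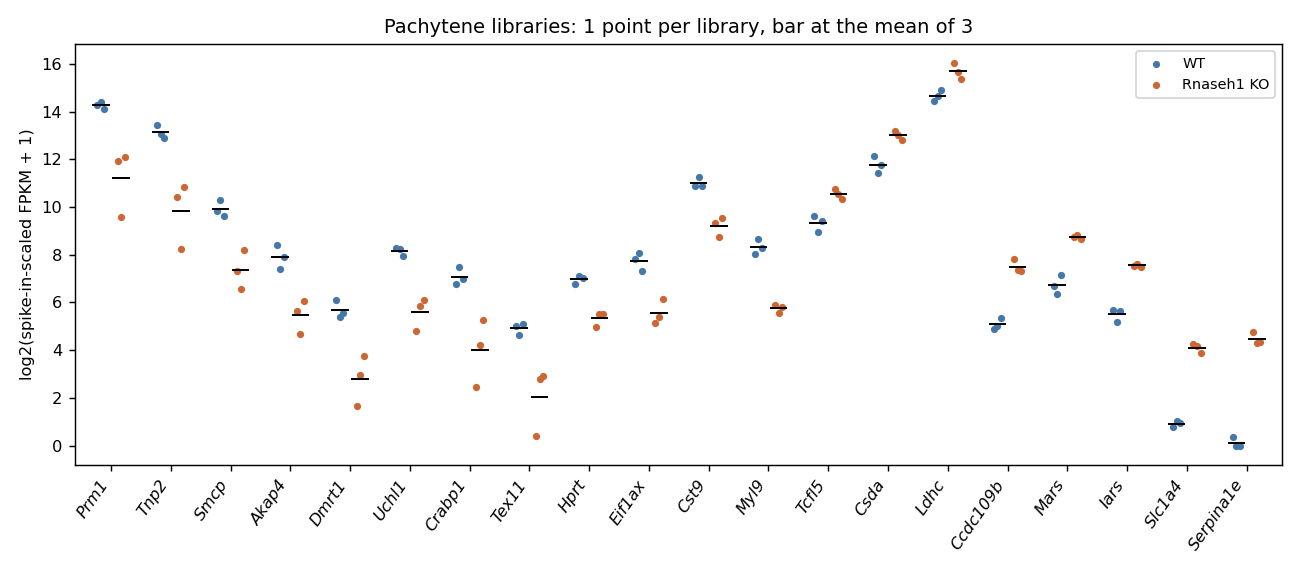
Levels of 20 genes as log2(FPKM + 1) on the spike-in scale, 1 point per pachytene library, with a bar at the mean of the 3 libraries of a genotype. Spermatid, spermatogonial, X-linked and somatic genes from Prm1 to Myl9 are lower in the KO-labelled libraries, and the genes from Tcfl5 to Serpina1e are higher there on this scale.

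Spermatogonial genes and some early meiotic genes formed the second lower group. Of 26 tested spermatogonial genes 13 (50%) were lower and 0 higher on the share scale, with a median of -1.15. Among all genes 9.22% were lower there. On the spike-in scale 16 (61.5%) were lower and 3 (11.5%) higher, against 14.3% and 24.6% of all genes. The higher count was 1 without wild-type replicate 1 or 2 or KO-labelled replicate 1 or 2. Summed FPKM of the list was 1.089 times wild type, with overlapping groups. Dmrt1, the factor that holds germ cells in the mitotic programme, stood at 67.9, 41.1 and 46.6 FPKM in wild-type and at 2.15, 6.80 and 12.3 FPKM in KO-labelled libraries. The KO-labelled values were all below the wild-type ones, with replicate 1 lowest. The share-scale change was -2.72 (SE 0.35, limma adjusted p = 0.00131), and it kept its call without any 1 library.

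Uchl1, a ubiquitin hydrolase of spermatogonia, fell from 307, 299 and 249 FPKM to 27.0, 56.7 and 67.4 FPKM, a share-scale change of -3.01 (SE 0.33, limma adjusted p = 0.000616). The germ-cell regulators Sohlh1 (-2.59) and Sohlh2 (-1.87), which act before meiosis, and the retinoic acid binding protein Crabp1 (-3.20) fell too. Stra8, the gene induced by retinoic acid at meiotic entry, was listed at 118, 75.7 and 86.1 FPKM in wild-type libraries, at 0 in KO-labelled replicate 1 and at 32.04 and 34.4 FPKM in the others. Its share-scale change of -2.73 (adjusted p = 0.0161) lost its call without wild-type replicate 1. The list had its lowest KO-labelled share in replicate 1 for 20 of its 26 members, as did 7279 of all 15400 genes.

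Genes that open meiotic prophase followed in part. Of 23 leptotene and zygotene genes 6 were lower on the share scale, as were 7 of 38 recombination genes and 5 of 25 genes of the synaptonemal complex and chromosome axis, against 9.22% of all genes. On the spike-in scale 13 recombination genes were higher and 4 lower (34.2% and 10.5%), against 24.6% and 14.3% of all genes. The axis list had 5 higher and 5 lower, and the leptotene and zygotene list 3 higher and 7 lower. Without KO-labelled replicate 1 or 2 the higher count was 0 in each list. Summed FPKM of the recombination, axis and leptotene lists was 1.498, 1.279 and 1.193 times wild type, against 1.497 for all genes, each with no overlap. Dmc1, the meiotic strand-exchange recombinase, stood at 15.9, 23.3 and 20.4 FPKM against 3.45, 5.60 and 10.8 FPKM (share-scale change -1.52, SE 0.24, limma adjusted p = 0.00300). Rec8 (-1.56), the meiotic cohesin, Smc3 (-1.40), the cohesin core subunit, and Mnd1 (-1.41), a partner of Dmc1, were also lower. Sycp1, the central filament of the synaptonemal complex, stood at 792, 865 and 895 FPKM against 802, 871 and 975 FPKM, and its share-scale change of -0.52 missed the threshold (adjusted p = 0.0691). The axis proteins Sycp3 (-0.41) and Hormad1 (-0.30) and the crossover protein Mlh3 (0.15) missed it as well.

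Of 45 replication genes 5 (11.1%) were lower on the share scale, near the 9.22% of all genes. Among them Mcm2, a subunit of the replicative helicase, fell by 2.19 and Fen1, the flap endonuclease, by 1.59. The count of lower spermatogonial genes on the share scale was 8 without wild-type replicate 1 or KO-labelled replicate 1. For recombination genes it was 4 without wild-type replicate 1 or 3 or KO-labelled replicate 1. The axis list counted 2 without wild-type replicate 1 or KO-labelled replicate 1, and leaving out KO-labelled replicate 2 gave 3. The replication list counted 3 without wild-type replicate 1 or 3 or KO-labelled replicate 1 or 2. On the spike-in scale, steps between low levels appeared coarser in KO-labelled libraries. There the worth of 1 fragment was estimated at 1.45 to 1.73 times that in wild-type replicate 1, against 0.795 and 0.835 in the other wild-type libraries. The estimate is the most common ratio to wild-type replicate 1 among genes below 2 FPKM in both libraries. It rests on 209 to 317 genes of the 2187 to 2959 shared, and fragments were not counted.

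The sex chromosomes stood apart from all autosomes. On the share scale 226 of 612 tested X-linked genes (36.9%) were lower and 0 higher, with a median of -0.94, while 1175 of 14641 autosomal genes (8.03%) were lower, with a median of -0.09. Single autosomes ranged from 5.50 to 9.84% lower and from -0.17 to -0.05 in their medians. At an unadjusted p below 0.05 in limma 381 were lower and still 0 higher, and on the spike-in scale 363 were lower and 5 higher. X-linked genes made up 0.769, 0.709 and 0.618% of the summed FPKM in wild-type and 0.183, 0.240 and 0.358% in KO-labelled libraries, with no overlap (exact two-sided permutation p = 0.1, the smallest possible). Of the 8 tested Y-linked genes 3 were lower.

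The difference grew with the level of the gene. Among genes with a mean of 20 to 100 FPKM, 72 of 91 X-linked genes (79.1%) were lower on the share scale, against 410 of 3904 autosomal genes (10.5%). Their medians were -2.03 and -0.04. At 100 to 500 FPKM the counts were 29 of 34 (85.3%) and 245 of 2865 (8.55%), with medians of -2.14 and 0.09. At 1 to 5 FPKM, where the pseudocount compresses changes, 33 of 245 X-linked genes (13.5%) and 114 of 2963 autosomal genes (3.85%) were lower.

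**Figure D3:**
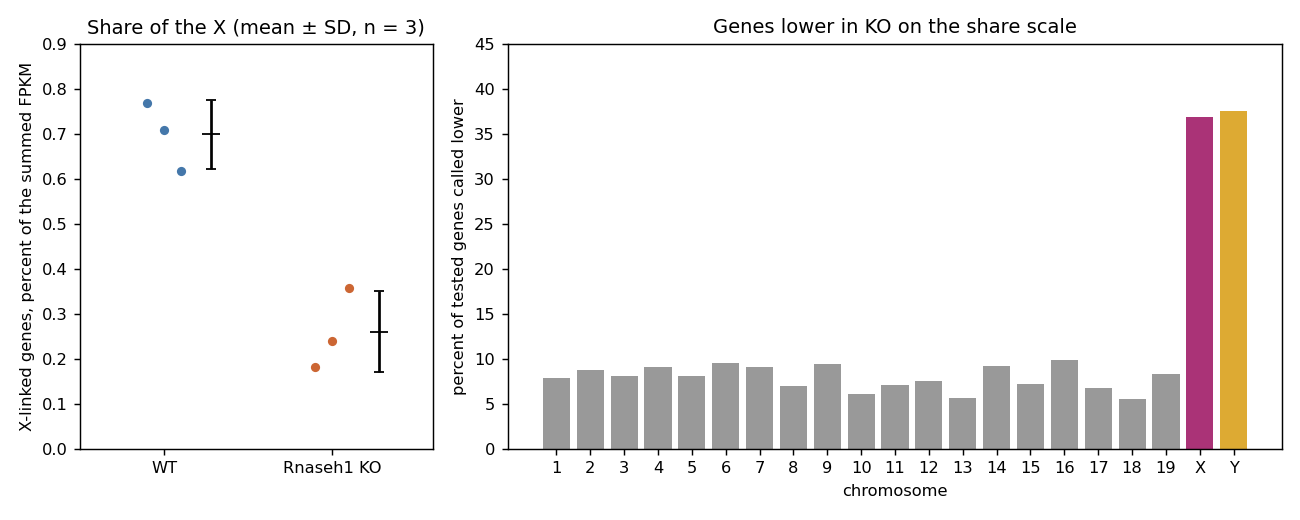
Left, X-linked genes as a percent of each pachytene library's summed FPKM, 1 point per library with mean ± SD (n = 3). Right, the percent of tested genes lower in KO-labelled cells on the share scale for each chromosome, where the autosomes lie between 5.50 and 9.84% and the X at 36.9%; the Y bar rests on 8 genes.

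The X-linked genes that were lower held both housekeeping and germ-cell genes. Hprt, the purine salvage enzyme, fell from 108, 137 and 129 FPKM to 30.8, 44.2 and 45.3 FPKM, a share-scale change of -2.07 (SE 0.22, limma adjusted p = 0.00055). Eif1ax, an initiation factor of translation, fell from 226, 266 and 159 FPKM to 33.9, 40.9 and 70.5 FPKM (-2.63, SE 0.32, adjusted p = 0.000800). Tex11, a meiotic crossover protein, fell from 31.0, 23.5 and 33.4 FPKM to 0.321, 5.85 and 6.596 FPKM (-2.33, SE 0.31, adjusted p = 0.00147). In each of the 3 genes the KO-labelled values lay wholly below the wild-type ones and replicate 1 was lowest, and each kept its call without any 1 library.

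Other members covered a wide range of roles. Nxf2, an mRNA export factor of germ cells, changed by -3.03, Taf7l, a germ-cell subunit of TFIID, by -2.73, the proteasome assembly chaperone Psmd10 by -2.46 and the ribosomal protein Rpl36a by -2.16 on the share scale. Scml2, a Polycomb protein of the germline, changed by -1.70 and the fragile X protein gene Fmr1 by -1.53. Pdha1 (-1.54), whose autosomal retrogene Pdha2 serves spermatocytes, Uba1 (-1.50), the ubiquitin-activating enzyme, and Usp9x (-1.38), a deubiquitinase, were lower too. From a list of 39 tested X-linked genes known to be silenced at pachytene, 23 were lower and 0 higher on the share scale, the median was -1.25, and all 39 changes were negative. On the Y chromosome Eif2s3y, a subunit of initiation factor eIF2, fell from 62.0, 74.0 and 67.2 FPKM to 21.3, 19.95 and 26.3 FPKM (-1.92, limma adjusted p = 0.000643), and Ube1y1, a ubiquitin-activating enzyme, changed by -2.03.

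At leptotene/zygotene the X-linked genes showed no such shift, with a median share-scale change of 0.17, 9 lower and 9 higher. The interaction test called 5919 genes (38.4%) on the spike-in scale and 965 (6.27%) on the share scale. On the share scale the effect was more negative at pachytene for 189 of the 612 X-linked genes and more positive for 2. The number of lower X-linked genes was 142 without KO-labelled replicate 1 and at least 154 without any other single library, and KO-labelled replicate 3 held the highest KO-labelled share for 444 of the 612.

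The KO-labelled libraries also held less RNA of somatic cells that surround the germ cells. Sertoli markers made up 0.212 to 0.275% of the summed FPKM in wild-type and 0.0557 to 0.0882% in KO-labelled libraries, and 8 of 27 were lower on the share scale (median -0.72). Peritubular and endothelial markers made up 0.0408 to 0.0443% against 0.00876 to 0.0133%, and 8 of 18 were lower (median -1.09). In both lists the groups did not overlap (exact permutation p = 0.1, the smallest possible). Leydig markers (0.167 to 0.362% against 0.117 to 0.183%) and blood markers (0.0171 to 0.0529% against 0.0198 to 0.0428%) overlapped, with 2 of 20 and 0 of 22 lower on the share scale. Among all genes 9.22% were lower there, near the Leydig count (10%) and above the blood count. On that scale 0 Leydig markers and 1 blood marker, Ccl2, were higher. On the spike-in scale 3 Leydig markers (15%) were higher and 2 (10%) lower, and 2 blood markers (9.09%) higher and 1 (4.55%) lower. Among all genes 24.6% were higher and 14.3% lower on the spike-in scale. Spermatogonial genes made up 0.0537 to 0.0718% against 0.0389 to 0.0563%, with overlap. X-linked genes are active in all of these cells, and the part that these cells had in the lower X-linked and spermatogonial levels was not tested.

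Cst9, a cystatin of Sertoli cells, stood at 1908, 2427 and 1861 FPKM in wild-type and at 646, 426 and 749 FPKM in KO-labelled libraries, a share-scale change of -2.36 (SE 0.28, limma adjusted p = 0.000774). Myl9, the regulatory light chain of smooth muscle myosin, stood at 259, 406 and 306 FPKM against 59.0, 45.6 and 54.8 FPKM (-3.03, SE 0.37, adjusted p = 0.000856). For both genes the genotypes were wholly separate and no single library decided the call. Ctsl (-1.78), a lysosomal protease, and Cnn1 (-1.23), a smooth muscle calponin, were lower as well, and Clu (-1.38), a secreted chaperone of Sertoli cells, was lower on the share scale alone. The Sertoli count was 5 without wild-type replicate 1 or KO-labelled replicate 1 or 2, and the peritubular count was 2, 5 and 4 without wild-type replicate 1, 2 or 3 and 3 and 2 without KO-labelled replicate 1 or 2.

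**Figure D4:**
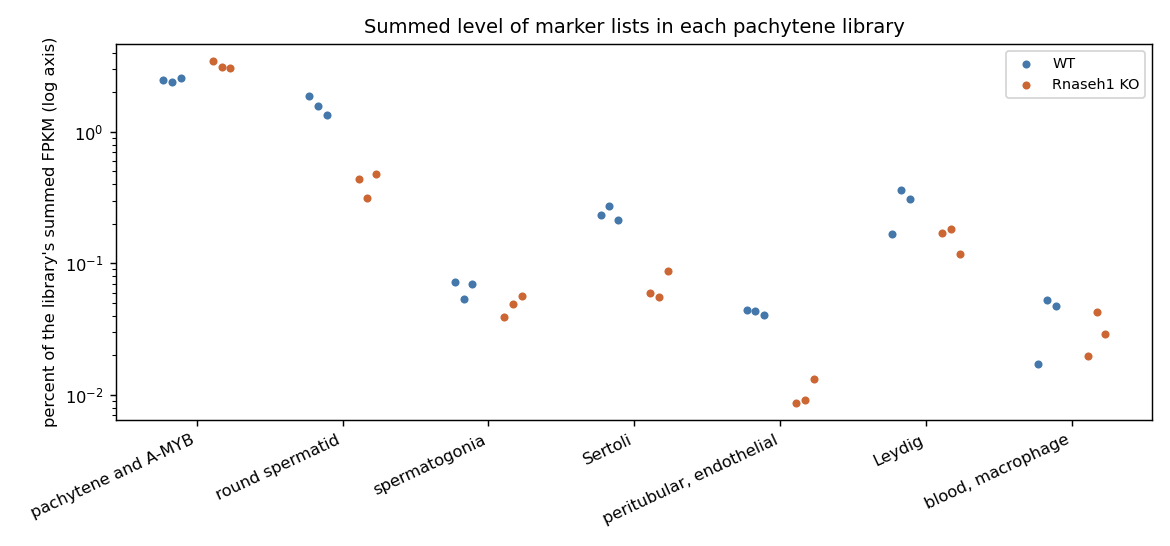
Summed level of 7 marker lists as a percent of each pachytene library's summed FPKM (log axis), 1 point per library. The round spermatid, Sertoli and peritubular lists are lower in all 3 KO-labelled libraries, the pachytene and A-MYB list is higher in all 3, and the spermatogonial, Leydig and blood lists overlap.

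Some widely expressed genes were lower with these groups. The proteasome activator subunits Psme2 and Psme1 fell by 2.17 and 1.64 on the share scale, and Eif4ebp1, the repressor of cap-dependent translation, fell from 154, 178 and 140 FPKM to 20.8, 30.1 and 38.5 FPKM (-2.78, SE 0.25, limma adjusted p = 0.000538). Its values were separate between genotypes and lowest in KO-labelled replicate 1. Of 26 tested glycolysis genes, germ-cell isozymes and their somatic partners, 10 (38.5%) were lower and 0 higher on the share scale. Among all genes 9.22% were lower there. The list had 19 negative share-scale changes and a median of -0.68. On the spike-in scale 6 (23.1%) were higher and 11 (42.3%) lower, against 24.6% and 14.3% of all genes. The higher count was 3 and 4 without wild-type replicate 1 or 2 and 2 and 3 without KO-labelled replicate 1 or 2. The list's summed part was larger in KO-labelled libraries, at 1.327 to 1.525% of the summed FPKM against 1.054 to 1.177%, with no overlap. Gapdhs (-3.03), the isozyme of the sperm flagellum, and the somatic isozymes Gapdh (-1.47) and Pkm2 (-1.54) were lower, while Ldhc, the lactate dehydrogenase of spermatocytes, stood at 22528, 26179 and 30388 FPKM against 67232, 52294 and 41931 FPKM. The Ldhc change was 1.01 on the spike-in scale (adjusted p = 0.00958) and 0.44 on the share scale (adjusted p = 0.0655). On the share scale the count of lower glycolysis genes was 6 without wild-type replicate 1 or 3 or KO-labelled replicate 1. Leaving out KO-labelled replicate 2 gave 5. The Gapdhs call was lost without wild-type replicate 1 or KO-labelled replicate 1 or 2.

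Genes of the pachytene programme were mostly higher on the spike-in scale and uncalled on the share scale. Of 38 pachytene and A-MYB target genes, 24 (63.2%) were higher and 2 (5.26%) lower on the spike-in scale, with a median of 0.87. Among all genes 24.6% were higher and 14.3% lower there, with a median of 0.37. On the share scale 0 of the 38 were higher (8 at an unadjusted p below 0.05 in limma) and 2 (5.26%) lower, with a median of 0.29. Among all genes 9.22% were lower on that scale, and the median was -0.11. The list made up 2.38 to 2.55% of the summed FPKM in wild-type and 3.06 to 3.44% in KO-labelled libraries (exact permutation p = 0.1, the smallest possible). Tcfl5, a pachytene transcription factor, stood at 781, 502 and 678 FPKM against 1721, 1514 and 1289 FPKM. The groups did not overlap, and the change was 1.22 on the spike-in scale (limma adjusted p = 0.00677) and 0.64 on the share scale (adjusted p = 0.0783). Csda, the Y-box protein also called Ybx3 that binds germ-cell mRNA, rose from 4514, 2781 and 3476 FPKM to 9441, 8433 and 7116 FPKM on the spike-in scale (1.23, adjusted p = 0.00469), with a share-scale change of 0.66 (adjusted p = 0.0552). The spike-in calls of Tcfl5, Csda and Ldhc held under median-ratio scaling and without any 1 library. On the share scale the genotypes did not overlap for Tcfl5 and Csda, and both were called higher there without wild-type replicate 1. In the 6 libraries alone both missed the threshold on that scale (limma adjusted p = 0.0618 and 0.0625).

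The 2 lower members of that list, Calr3 (-2.60), a testis calreticulin, and H1fnt (-2.76), a linker histone of spermatids, lay with the spermatid genes, and the H1fnt call was lost without any 1 library except KO-labelled replicate 3. Mael (0.29) and Piwil1 (0.29), which act in the piRNA pathway, and Brdt (0.14), a bromodomain protein of meiosis, stayed within the share-scale error. The hexamer CACGTG, searched on both strands, lay in 11 of the 29 promoters of this list in RefSeq (37.9%) against 11.1% of all genes with a promoter and 10.2% of the genes lower on both scales. The MYB-type motif AACNGTT lay in 4 of the 29 (13.8%), against 4.45% and 5.44%. Motifs were chosen after promoters were read. Of 40 genes of the axoneme, dynein arms and intraflagellar transport, 27 (67.5%) were higher and 0 lower on the spike-in scale. Among all genes 24.6% were higher and 14.3% lower there. On the share scale 0 of the 40 were called (median 0.30), and 7 passed an unadjusted p of 0.05 in limma, all higher. Without KO-labelled replicate 1 or 2 the spike-in count of the pachytene list was 5 and 7, and without wild-type replicate 1 or 2 it was 15 and 9. For the axoneme list these counts were 2 and 2, and 8 and 5.

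Other R-loop factors were mostly uncalled. Of 45 tested genes for helicases, topoisomerases, RNA processing factors and RNase H2 that limit R-loops, 19 (42.2%) were higher and 0 lower on the spike-in scale, against 24.6% and 14.3% of all genes. The higher count was 4 and 0 without wild-type replicate 1 or 2 and 0 without KO-labelled replicate 1 or 2. On the share scale 2 were lower, with a median of -0.01. These were Top2b (-1.04), a DNA topoisomerase, and Rnaseh2b (-0.85), a subunit of RNase H2, and each lost its call without wild-type replicate 3 or KO-labelled replicate 1 or 2, and Top2b also without wild-type replicate 1 and Rnaseh2b also without wild-type replicate 2. Rnaseh2a, the catalytic subunit of RNase H2, changed by 0.30 on the share scale (limma adjusted p = 0.509). Among 35 p53 target and apoptosis genes 6 (17.1%) were lower and 0 higher on the share scale, against 9.22% and 0.273% of all genes, including the cell death gene Bax (-1.64) and the somatic cytochrome c gene Cycs (-1.87). That count was 3 without KO-labelled replicate 1. Of 22 tested nucleic acid sensing and interferon genes limma called 0 on the share scale, 1 higher and 1 lower at an unadjusted p below 0.05, and 6 (27.3%, near the 24.6% of all genes) as higher on the spike-in scale. The last count was 1 without wild-type replicate 1, 3 without wild-type replicate 2 and 2 without KO-labelled replicate 1 or 2.

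**Figure D5:**
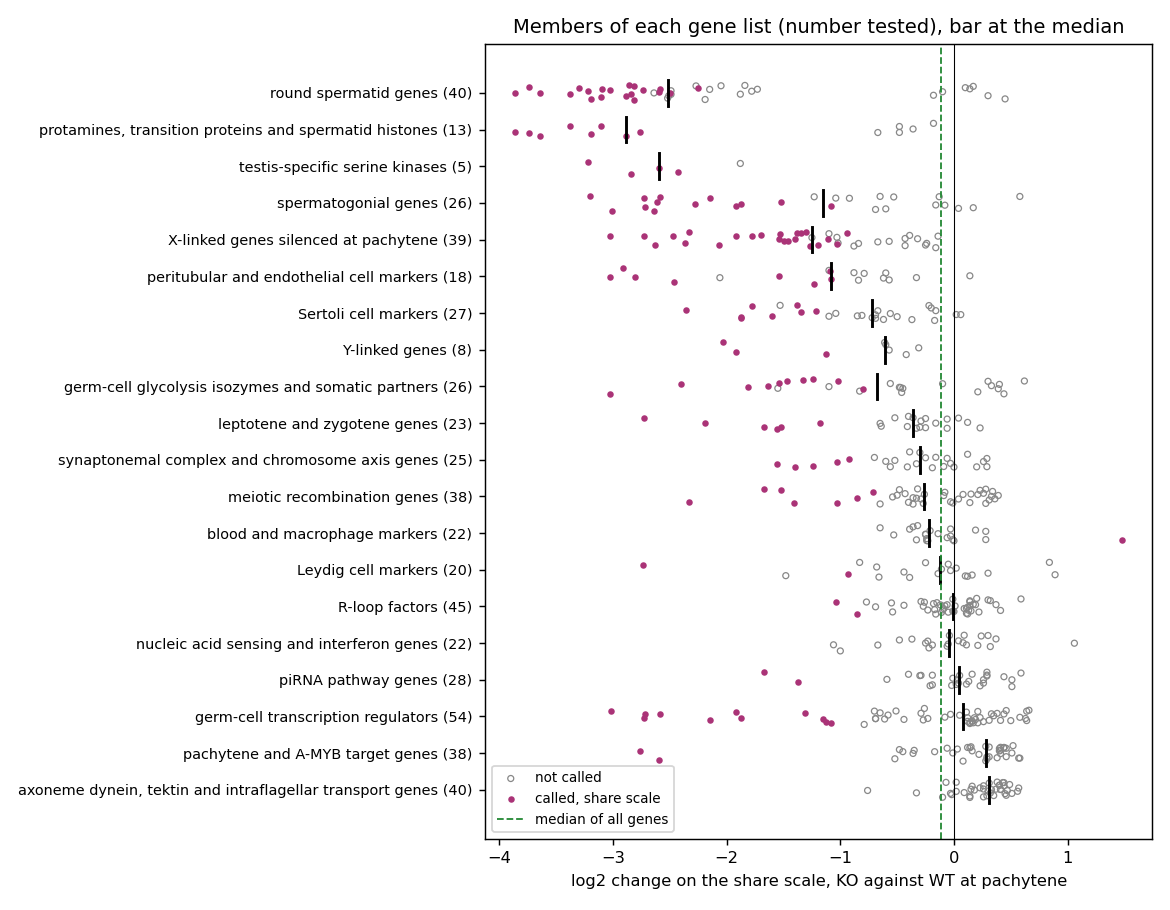
Share-scale log2 change, KO-labelled against wild type, of each tested member of 20 gene lists, filled where called, with a bar at the list's median. The spermatid, serine kinase, spermatogonial and X-linked lists lie mostly to the left of the median of all genes at -0.11, and the pachytene and axoneme lists to its right.

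The genes that were higher on both scales numbered 42, with a median share-scale change of 0.93. They included 4 cytosolic aminoacyl-tRNA synthetases, enzymes that load amino acids onto tRNA, and the neutral amino acid transporter Slc1a4. Promoters of 4 of these 5 genes are shown because they hold a sequence of the type bound by ATF4, the transcription factor of the amino acid response.
Slc1a4: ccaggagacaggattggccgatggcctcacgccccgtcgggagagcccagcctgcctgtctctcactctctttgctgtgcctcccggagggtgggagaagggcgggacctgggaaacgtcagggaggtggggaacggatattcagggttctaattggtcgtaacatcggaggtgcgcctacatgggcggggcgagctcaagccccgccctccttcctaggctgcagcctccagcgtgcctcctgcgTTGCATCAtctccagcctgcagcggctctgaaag
Iars: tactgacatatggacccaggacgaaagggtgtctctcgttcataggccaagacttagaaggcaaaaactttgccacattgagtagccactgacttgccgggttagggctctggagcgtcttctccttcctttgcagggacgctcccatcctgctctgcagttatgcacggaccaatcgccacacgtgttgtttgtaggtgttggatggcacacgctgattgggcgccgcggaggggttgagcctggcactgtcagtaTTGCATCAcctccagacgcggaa
Gars: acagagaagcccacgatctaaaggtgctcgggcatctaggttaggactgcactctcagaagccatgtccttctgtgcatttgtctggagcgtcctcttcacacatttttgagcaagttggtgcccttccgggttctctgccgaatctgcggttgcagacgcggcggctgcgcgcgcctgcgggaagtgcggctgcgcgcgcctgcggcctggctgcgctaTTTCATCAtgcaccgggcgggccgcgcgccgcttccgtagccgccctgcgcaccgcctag
Aars: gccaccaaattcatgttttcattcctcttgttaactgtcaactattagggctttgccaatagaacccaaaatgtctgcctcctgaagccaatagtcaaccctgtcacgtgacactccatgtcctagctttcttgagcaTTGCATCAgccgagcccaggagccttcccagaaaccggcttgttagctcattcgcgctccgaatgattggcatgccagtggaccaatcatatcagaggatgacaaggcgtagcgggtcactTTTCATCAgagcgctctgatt
These are RefSeq sequences of build GRCm38.p6, over the same window as above, at chr11:20332684-20332963 (minus strand) for Slc1a4 and on the plus strand at chr13:49681880-49682159 for Iars, chr6:55037751-55038030 for Gars and chr8:111033592-111033871 for Aars. Capitals mark TGATGNAA on either strand, which occurs at 2 places in Aars. It lay in the promoters of 4 of 32 higher genes (12.5%), of 43 of 901 lower genes (4.77%) and of 394 of all 12131 (3.25%), and the letters show no binding. It also lay in 6 of 20 promoters of the ATF4 response list (30%), Asns among them, which was lower. Among the higher genes the CRE-type motif TGACNTCA and the hexamer CACGTG were as frequent, each in 4 of 32 promoters.

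Mars, the methionyl-tRNA synthetase, stood at 102, 81.5 and 140 FPKM in wild-type and at 423, 451 and 402 FPKM in KO-labelled libraries. Iars, the isoleucyl-tRNA synthetase, stood at 50.4, 35.3 and 48.3 FPKM against 184, 196 and 181 FPKM. Both were separate between genotypes with little spread in the KO-labelled libraries, and changed by 1.41 (SE 0.20, limma adjusted p = 0.00171) and 1.42 (SE 0.22, adjusted p = 0.00297) on the share scale. Aars (0.95) and Gars (0.84), which charge alanine and glycine tRNA, rose too. Slc1a4 was near 1 FPKM in wild-type libraries, at 0.692, 1.03 and 0.938 FPKM and stood at 18.2, 17.1 and 13.7 FPKM in KO-labelled ones, a share-scale change of 1.64 (SE 0.28, adjusted p = 0.00442). All 5 genes kept their share-scale call without any 1 library.

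Other genes of the ATF4 response were mostly uncalled on the share scale. Of 21 tested members limma called 0 as higher and 2 as lower on the share scale, and 2 were higher at an unadjusted p below 0.05. The lower share, 9.52%, was near the 9.22% of all genes, and in the fit of the 6 pachytene libraries alone 3 members were higher and 2 lower. On the spike-in scale 6 (28.6%) were higher and 5 (23.8%) lower, against 24.6% and 14.3% of all genes. The higher count there was 2 without wild-type replicate 1 or 2 and 1 without KO-labelled replicate 1 or 2. The members lower on the share scale were Phgdh (-1.96), the first enzyme of serine synthesis, and Asns (-1.53), the asparagine synthetase. Chac1, a glutathione-degrading ATF4 target, stood at 0.943, 3.75 and 1.77 FPKM against 12.9, 14.7 and 14.7 FPKM. It was higher on the spike-in scale (2.36, limma adjusted p = 0.00506) and missed the threshold on the share scale (1.19, adjusted p = 0.158), which it passed in the 6 libraries alone (adjusted p = 0.00516). The Asns call was lost without wild-type replicate 1 or 3 or KO-labelled replicate 1 or 2.

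Serpina1e, an alpha-1 antitrypsin gene best known from liver, was listed at 0.275, 0 and 0 FPKM in wild-type and at 26.4, 18.6 and 19.2 FPKM in KO-labelled libraries. It was at or near 0 in every wild-type library and well above it in every KO-labelled one, and its share-scale change was 2.2 (SE 0.23, limma adjusted p = 0.000538). It belongs to a family of near-identical paralogs, among which the counting could divide fragments. Ccdc109b, a subunit of the mitochondrial calcium uniporter complex, rose from 28.3, 31.2 and 40.0 FPKM to 225, 162 and 159 FPKM (1.76, SE 0.21, adjusted p = 0.000794). Fam23a (1.58) and Ttc38 (1.25) were higher as well, and these 4 genes kept their call without any 1 library. Serpind1, the heparin cofactor, changed by 1.43 and the chemokine Ccl2, a member of the blood marker list, by 1.48. Serpind1 lost its call without wild-type replicate 1 or 3 or KO-labelled replicate 1 or 2, and Ccl2 without wild-type replicate 1 or 3 or KO-labelled replicate 2 or 3.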

How the data were processed

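RNA was measured by sequencing of polyadenylated RNA from sorted spermatocytes, 3 libraries for each of 4 groups. The authors deposited 1 table of FPKM values per gene rescaled by ERCC spike-ins, per the file headers and the submitters' processing notes, which name TopHat2 2.1.1, Cufflinks 2.2.1 and the mm9 build. The formula of the rescaling and the gene annotation are not given in the sources used here, and 4 columns without a sample name were not used. Depth in fragments is unknown. The deposited values hold 0 entries for the spike-ins, so the rescaling was not checked here.

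The values are not counts, so no count model was used. Genes reaching 1 FPKM in at least 3 of 12 libraries were tested with limma 3.58.1 in R 4.3.3 on log2(FPKM + 1), with 1 fit over all 4 groups, a mean-variance trend and Benjamini-Hochberg adjustment over all 15400 genes, with a threshold of 0.05. A fold change on this scale understates the change of low genes. The share scale used the same fit on parts per 1000000 of each library's sum over tested genes. Single values were compared by exact two-sided permutation tests of 3 against 3 libraries. The scripts were tested on simulated data.

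Members and gene lists were chosen with earlier results of these data known. The named genes are Rnaseh1, 4 given markers, the 8 highest and 8 lowest changes on each scale among called, non-overlapping genes with a mean of at least 5 FPKM, up to 3 called or 2 uncalled members of each list, and the 5 most abundant genes, 137 in all, of which some are not reported here. Other genes named here (Crem, Acrbp, Odf2, Catsper2, Sohlh1, Sohlh2, Mnd1, Sycp1, Sycp3, Hormad1, Mlh3, Hprt, Pdha1, Uba1, Usp9x, Clu, Ctsl, Cnn1, Gapdh, Pkm2, Mael, Piwil1, Brdt, Rnaseh2a, Gars, Aars, Rars, Snord100, Mir719) were picked from the lists or tables after their values were seen, the list of aminoacyl-tRNA synthetases was made after values were seen, and motifs were chosen after promoters were read. Same-numbered libraries of the 2 genotypes did not deviate together at pachytene (r = -0.08, 0.08 and -0.17), so numbers were not used as pairs. Chromosomes and promoters come from RefSeq, build GRCm38.p6, by gene symbol, and no mm9 coordinates are printed. Alternatives were other scalings, pseudocounts, filters, the 6 pachytene libraries alone, a replicate block and leaving out each library.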

Additional observations from a re-analysis of the deposited data

Results flagged for a closer look

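For 26 genes named by rule and reported here the difference between genotypes was itself different at pachytene and at leptotene/zygotene, by limma's interaction test on both scales. The values below are the share-scale log2 change at pachytene minus that at leptotene/zygotene.

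Smooth muscle and Sertoli genes included Acta2 (-5.53), Myl9 (-3.90), Cst9 (-3.16) and Cst12 (-3.02). The Acta2 value joined a pachytene change of -2.91 and a leptotene/zygotene change of 2.62 (limma adjusted p = 0.0741). The latter rested on low levels, 0.358, 0.452 and 0.0382 FPKM in wild-type libraries. KO-labelled leptotene/zygotene libraries stood at 0.644, 15.1 and 2.87 FPKM. Acta2, smooth muscle actin, lost its pachytene share-scale call without wild-type replicate 1, 2 or 3 or KO-labelled replicate 1 or 2, Mageb16 without wild-type replicate 1 or KO-labelled replicate 1 or 2, Zfp711 without wild-type replicate 1 or 3 or KO-labelled replicate 1 or 2, and Slc25a4 without wild-type replicate 3 or KO-labelled replicate 1. Genes of the sex chromosomes included Nxf2 (-3.28), Taf7l (-2.89), Tmsb15l (-2.83), Rpl36a (-2.53), Eif1ax (-2.52), Tex11 (-2.48), Psmd10 (-2.40), Eif2s3y (-2.26), Ube1y1 (-2.21), Mageb16 (-2.04) and Zfp711 (-1.76).

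Among genes of spermatogonia, replication and early meiosis the values were -2.78 for Dmrt1, -2.68 for Uchl1, -2.48 for Cdca7, -2.04 for Mcm2, -1.94 for Tex15 and -1.79 for Rec8. Slc25a4 (-2.81) was lower on the share scale alone (spike-in adjusted p = 0.0559). Other lower genes were Eif4ebp1 (-2.81), Rmnd1 (-2.61) and Psme2 (-2.39). Serpina1e was the only higher gene of this set (1.62). Sertoli markers had a median share-scale change of 1.02 at leptotene/zygotene and of -0.72 at pachytene, and their part in these differences was not tested.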

How the results depend on the processing

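The number of higher genes on the spike-in scale was 505 after median-ratio scaling, 2454 with a pseudocount of 0.1, 990 with a replicate block and 42 as shares of the column sum. Leaving out 1 library gave 300 to 4604 higher and 978 to 2348 lower genes on that scale, and 13 to 33 higher and 565 to 1443 lower genes on the share scale. Shares of the column sum gave 1420 lower genes. Higher genes on the share scale numbered 27 with the replicate block and 138 in the 6 pachytene libraries alone. Lower genes on that scale numbered 840 with a pseudocount of 5, 2837 in the 6 libraries alone and 1259 with the replicate block. Genes with an interaction numbered 1029 after median-ratio scaling, 3296 with the replicate block and 3749 to 6445 without 1 library. The Rnaseh1 change was 0.53 and passed the threshold with a pseudocount of 5, turned to -0.01 as a share of the column sum, and ranged from 0.44 to 0.66 without 1 library. The ratio of summed levels was 1.156 after median-ratio scaling, 1.066 for the median over genes and 1.376 to 1.621 without 1 library. The X-linked percent was lower by 0.400 to 0.488 points without 1 library (-0.4875 to -0.3996) and changed by -0.5942 without the 100 most abundant genes. The 100 most abundant genes took 1.69 points more of the sum in KO-labelled libraries on average, 1.041 to 2.60 without 1 library. The groups overlapped, at 26.7 to 29.8% in wild-type and 29.2 to 30.1% in KO-labelled libraries (exact permutation p = 0.3). The causes of these shifts were not tested.

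Of 102 named genes called on the share scale, 101 kept their call in the 6 libraries alone and 96 with the replicate block, but 41, 38 and 37 lost it without wild-type replicate 1, KO-labelled replicate 2 or KO-labelled replicate 1. Low genes are limited by the fragments behind them, whose number is unknown, and absence of a call there does not show that a gene did not change.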

Other observations

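Of 20 cytosolic aminoacyl-tRNA synthetase genes, listed after values were seen, 17 were higher and 0 lower on the spike-in scale, where 24.6% of all genes were higher, and 4 were higher and 1 lower on the share scale, with a share-scale median of 0.23. The spike-in count was 8 and 7 without wild-type replicate 1 or 2 and 8 and 7 without KO-labelled replicate 1 or 2. The lower one was Rars (-0.63), the arginyl-tRNA synthetase, which lost its call without wild-type replicate 1 or 3 or KO-labelled replicate 1 or 2. Of 17 mitochondrial counterparts 5 were higher on the spike-in scale, and 0 higher and 1 lower on the share scale, with a median of -0.05. Their spike-in count was 1 in each of those 4 fits.

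Among 75 tested short RNA entries, Snord100 was listed at 0 in every wild-type library and at 2137, 2431 and 4080 FPKM in the KO-labelled ones, and Mir719 at 0.00395, 0.00837 and 0.00388 FPKM against 859, 603 and 787 FPKM. Estimates for entries shorter than a sequenced fragment are uncertain.

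Rmnd1 was listed at 33.9, 30.9 and 27.5 FPKM in wild-type libraries and at 0.000808, 5.04 and 0.000725 FPKM in KO-labelled ones, and Tmsb15l at 29.7, 31.5 and 24.5 FPKM against 0.00139, 0.000995 and 2.71 FPKM. Tmsb15l has near-identical paralogs, and its level is uncertain. Phlda2 was listed at 10.3, 12.5 and 9.07 FPKM in wild-type libraries and at 0 in all 3 KO-labelled ones, as were 6 of the genes lower on both scales.

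The most abundant gene of the pachytene libraries by the mean was Fabp9, a fatty acid binding protein of spermatocytes, at 39674, 72225 and 52170 FPKM against 97883, 79377 and 72368 FPKM. Its share-scale change was 0.06, so that its part of the summed level was nearly even between genotypes.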
